A study of Mus musculus with 8 samples.

Results

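Intronic loci inside same-strand coding genes are transcribed intervals that short-read assembly placed within the span of a protein-coding gene, on the coding strand, without a base in an annotated exon of that strand. Members were selected on position and on 1 measured property. Each is an assembled locus of autosomes 1 to 19 (build mm10) that lies within a same-strand protein-coding gene of GENCODE M21, touches no same-strand exon of any gene and has a normalized read count above 0 in any of 6 short-read libraries. The rule gave 792 loci in 550 host genes, of 19649 assembled autosomal loci and 65265 entries in the gene table.

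All libraries were made from HL1 cells, an immortal mouse line with properties of atrial heart muscle, cultured with 0.1 mM norepinephrine in every group. Nuclei were lysed with detergent and separated into a chromatin pellet and soluble nucleoplasm, and ribosomal RNA was depleted before sequencing. There were 3 chromatin and 3 nucleoplasm short-read libraries, made from 100 ng of RNA with stranded reads of 50 bp, and 2 chromatin long-read libraries. All come from 1 cell line, and the comparison of the fractions asks which nuclear transcripts stay with chromatin.

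Introns are cut out by the spliceosome largely while the gene is still being transcribed, and are released as branched lariats that Dbr1 opens before exonucleases and the nuclear exosome degrade them. RNA that is still attached to elongating polymerase sediments with chromatin, whereas spliced messenger RNA is released into the nucleoplasm. Independent transcripts such as long noncoding RNAs, enhancer RNAs and processed pseudogenes can also lie inside introns.

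The cell label was compared with marker genes. Of 10 cardiomyocyte markers 8 had a named entry (Myh6 and Tnnt2 had none), and all 8 were above 0. Their summed normalized counts were 214129, 211119 and 118074 in chromatin libraries 1 to 3. In nucleoplasm libraries 1 to 3 the sums were 103252, 112761 and 51653. Ryr2, the calcium release channel of the sarcoplasmic reticulum, was the most abundant in chromatin, and Myl7 in nucleoplasm. Only Ryr2 and Actn2 were higher in chromatin, with log2 fold changes of 2.83 and 2.92. All other cardiomyocyte markers had log2 fold changes below 0, and the median of the list was -1.72. All 5 fibroblast markers were above 0 as well. They summed to 120627, 135555 and 173752 in chromatin and 259124, 253737 and 460641 in nucleoplasm, and the most abundant was the collagen gene Col1a1. Library 3 of each fraction thus had the lowest cardiomyocyte sum and the highest fibroblast sum. Of 3 endothelial markers 2 were above 0, with sums of 862 to 2570 carried by Kdr and with Cdh5 at 0. Of 3 blood markers 2 were above 0, with sums of 39.4 to 146.7 carried by Cd68 and with Adgre1 at 0. The part of these markers in the results was not tested. In bulk libraries, fewer cells of a type and less RNA per cell cannot be told apart.

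Recovered reads ranged from 91657034 to 121773350 per library. Of the members, 757 were above 0 in all 6 libraries, and 762 had a mean normalized count of at least 10. The other 30 lay under that mean. In 14 members, all under that mean, the 3 nucleoplasm libraries were at 0, so that they met the rule through chromatin alone. The fold changes of these 14 depend on the pseudocount, and 2 of them are among the members called higher below. At the threshold itself, the members with the lowest values were MSTRG.9625 in Crtac1 and MSTRG.15301 in Cntnap2, each at 1.04 in chromatin 3 and at 0 elsewhere, a mean of 0.173. Just outside it, 6 loci that met the positional rule were at 0 in all 6 libraries. On the positional side, 21 members came within 10 bp of a same-strand exon, the nearest within 1 bp, and 4392 of the 5190 loci inside a same-strand coding gene were left out because they touched an exon, the smallest such overlap being 16 bp. The median member spanned 4832 bp, from 200 to 114760 bp, and the spans summed to 7.97 Mb.

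A small group of members stood apart by library. In 13 of them the highest and the lowest nucleoplasm library differed by more than 3 on the log2 scale at a mean of at least 100, a group singled out after the values were seen. These 13 held 7.43%, 3.42% and 1.96% of all normalized counts in nucleoplasm libraries 1 to 3, and 0.621%, 1.07% and 1.28% in chromatin libraries 1 to 3. The other 779 members together held 0.225%, 0.170% and 0.291% in nucleoplasm against 3.07%, 2.91% and 2.99% in chromatin. Such a spread was about as frequent over the whole table, at 354 of 15736 entries with a mean of at least 100 (2.25%) against 2.20% of the 590 members with that mean.

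The 13 loci followed 2 orders. In 7 of them nucleoplasm 1 was highest. At MSTRG.7371 (chr16:57391071-57391758, minus strand) in an intron of Cmss1, the normalized counts were 16131, 148363 and 10637 in chromatin and 4953660, 306788 and 650830 in nucleoplasm. All nucleoplasm values lay above all chromatin values, and chromatin 2 and nucleoplasm 1 were each the highest of their fraction. MSTRG.15000 in Cdk8, MSTRG.9850 in Camk1d, MSTRG.4224 in Gphn, MSTRG.11525 in Spata5 and MSTRG.5348 in Il31ra had the same order, with chromatin 2 and nucleoplasm 1 on top. MSTRG.1695 in Ctnna3, at 72468 bp the longest of the 13, had 4883 counts in chromatin 2, 668 in nucleoplasm 1 and 0 in the other 4 libraries. It lies wholly inside another member, MSTRG.1694, on the same strand and with the same end. MSTRG.1694 had counts in every library, so a value of 0 at MSTRG.1695 does not show that its bases lacked reads. How reads were shared between both entries was not tested.

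In the other 6 loci nucleoplasm 2 was highest and nucleoplasm 1 lowest. At MSTRG.4887 (chr13:44869534-44870087, plus strand) in Jarid2, which encodes a cofactor of the polycomb complex, the counts were 194635, 238307 and 457550 in chromatin and 2721, 1155200 and 178789 in nucleoplasm. The fractions overlapped there, with nucleoplasm 2 above and nucleoplasm 1 and nucleoplasm 3 below every chromatin library. MSTRG.7372 in Filip1l, MSTRG.7593 in Rsph3b, MSTRG.238 in Dnah7b, MSTRG.2109 in Tmtc2 and MSTRG.9900 in Hacd1 had the same order in nucleoplasm. MSTRG.7372 and MSTRG.7371 cover nearly the same bases on opposite strands. A locus at the ribosomal RNA gene CT010467.1, MSTRG.8117 (chr17:39846336-39898385, minus strand), had 2711320, 28857100 and 10971900 counts in nucleoplasm and 9816990, 9160870 and 6428330 in chromatin, so that nucleoplasm 2 was highest and nucleoplasm 1 lowest there. The locus on the other strand of that gene, MSTRG.8116, had another order, with 33850, 36778 and 98228 counts in nucleoplasm and 5616500, 5403960 and 3766350 in chromatin. The part of either in the members' values was not tested.

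Most members were more abundant in chromatin. By limma on log2(normalized count + 1), with p adjusted over all 35830 entries above 0 in at least 1 library, 604 members (76.3%) were higher in chromatin by more than 4 fold at an adjusted p under 0.05, beside 15.7% of all entries, and 14 members (1.77%) were lower, beside 4.90% of all entries. Without the fold threshold, 645 members were higher, where 26.9% of all entries were, and 47 were lower, where 20.9% of all entries were. The median log2 fold change of members was 3.72 (quartiles 2.40 and 4.11, range -5.11 to 5.30) against 0.38 over all entries. It was 3.84, 3.88 and 3.49 in the same-numbered library pairs 1 to 3. Without the 13 loci above, 604 of 779 members were higher, 10 were lower and the median was 3.75. When libraries were scaled to the spiked ERCC RNA, 631 members were higher and 1 was lower, and over all entries the counts moved in the same way, from 5628 to 7963 higher and from 1754 to 221 lower.

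The 6 libraries seldom overlapped between fractions. In 658 members (83.1%) all 3 chromatin libraries lay above all 3 nucleoplasm libraries, which was so for 31.5% of all entries, and in 53 members (6.69%) they lay below, which was so for 23.8% of all entries. In the other 81 members the fractions overlapped. An exact permutation test of 3 libraries against 3 cannot go below p = 0.1. Of the 792 members, 436 (55.1%) had a log2 fold change between 3.5 and 4.5, against 4.88% of all entries. This interval lies around the members' own median, so these shares reflect level and do not measure spread. The quartiles were 2.40 and 4.11 for members, and -0.72 and 1.56 over all entries. The median SE of the log2 fold change was 0.237 for members against 0.391 over all entries. Members were also more abundant, with a median mean count of 464.5 against 54.3, and SEs were not compared at matched counts.

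Other assembled loci had smaller median log2 fold changes. Those inside a same-strand coding gene that touched an exon (n = 4279) had a median log2 fold change of -0.62, with 8.97% called higher and 9.65% lower. Loci inside a coding gene on the opposite strand, with no gene on their own (n = 863), had a median of 1.15 and 28.7% called higher. Loci outside annotated genes on both strands (n = 1748) had a median of 1.02 and 28.4% called higher. Per kilobase of span, members had a median chromatin count of 239.6 and a median nucleoplasm count of 19.7. The opposite-strand loci had 6.83 and 1.32, and the loci outside genes 205.0 and 92.9. The median of the mean count was 464.5 for members, 20.4 for opposite-strand loci and 79.2 for loci outside genes. The pseudocount shrinks fold changes at low counts, and the sets were not compared at matched counts.

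Longer members differed more between the fractions. The 155 members of up to 500 bp had a median log2 fold change of 0.75, with 35 called higher and 9 lower. The median was 2.96 for 50 members above 500 and up to 1000 bp, 3.48 for 72 above 1000 and up to 2000 bp, and 3.76 for 123 above 2000 and up to 5000 bp. Above 20000 and up to 50000 bp it was 4.05, and 98 of 100 members were called higher. Chromatin counts per kilobase changed little along this series, from 266.2 in the shortest class to 214.2 in the class above 2000 bp and 280.0 in the class above 20000 bp. Nucleoplasm counts per kilobase were 159.4 in the shortest class, 31.6 in the next and 17.4 in the class above 20000 bp. Loci outside genes also had larger median log2 fold changes at larger spans, from 0.63 up to 500 bp (n = 912) to 2.84 above 10000 bp (n = 150). Opposite-strand loci went from 0.42 (n = 213) to 2.03 (n = 202). Those 202 loci had a median mean count of 7.08, a level at which the pseudocount shrinks fold changes. Across the 792 members, which share the same libraries, Spearman's correlation between locus span and log2 fold change was 0.56, and between mean count and log2 fold change it was 0.49. Among the 515 members above 2000 bp they were 0.26 and 0.39. For mean count per kilobase the correlation with log2 fold change was -0.07 over all members and 0.28 above 2000 bp. Span and mean count were themselves related, with a Spearman's correlation of 0.73.

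Among the 10 members with the highest mean count, 9 were loci of the group with divergent nucleoplasm libraries. The exception was MSTRG.8450 (chr17:81510236-81569599, minus strand), 59364 bp within the third gap between merged exons of Slc8a1, the sodium-calcium exchanger of the cardiac plasma membrane. Its counts were 193750, 177622 and 144819 in chromatin and 10488, 8309 and 10236 in nucleoplasm. Every chromatin library stood far above every nucleoplasm library, with a log2 fold change of 4.15 (SE 0.159, n = 3 per fraction, limma adjusted p = 2.35e-05). The exonic entries of Slc8a1 had 235177, 216748 and 187511 counts in chromatin and 50629, 45595 and 35552 in nucleoplasm, a log2 fold change of 2.29.

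The largest rises with a mean of at least 100 were in hosts of different function. MSTRG.11635 (chr3:56152597-56153201, minus strand) lay in the first intron of Nbea, a scaffold of vesicle trafficking, with 463.5, 532.4 and 488.1 counts in chromatin and 11.1, 9.59 and 14.5 in nucleoplasm. Its log2 fold change was 5.30 (SE 0.217, limma adjusted p = 2.62e-05). MSTRG.13802 in Cdk14, a cyclin-dependent kinase, had 1304, 1146 and 1219 counts in chromatin and 33.3, 30.0 and 40.6 in nucleoplasm and a log2 fold change of 5.11 (SE 0.157, limma adjusted p = 2.28e-05). In both loci the chromatin libraries were close together and clear of the nucleoplasm libraries.

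MSTRG.6232 lay in an intron of Drosha, the nuclease that starts microRNA maturation, and had 1130, 1117 and 2038 counts in chromatin and 32.3, 37.2 and 52.9 in nucleoplasm. The locus rose by 5.07 on the log2 scale (SE 0.307, limma adjusted p = 6.17e-05), whereas its host had a log2 fold change of -0.80. MSTRG.19413 in Clstn2, which encodes a calsyntenin of synapses, had 281.6, 222.2 and 90.5 counts in chromatin and 8.08, 1.20 and 5.80 in nucleoplasm, a log2 fold change of 5.13 (SE 0.696, limma adjusted p = 0.00142). Its libraries were more spread than those of the other loci, but the fractions did not overlap. MSTRG.8346 in Ptprm, a receptor tyrosine phosphatase, had 423.9, 425.5 and 404.8 counts in chromatin and 11.1, 10.8 and 15.9 in nucleoplasm, a log2 fold change of 4.96 (SE 0.219, limma adjusted p = 2.84e-05).

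The 4 largest falls among called loci with a mean of at least 100 came from the group with divergent nucleoplasm libraries. The log2 fold change was -5.08 for MSTRG.7371 in Cmss1 (SE 1.38, limma adjusted p = 0.0244), -5.03 for MSTRG.11525 in Spata5 (SE 1.47, limma adjusted p = 0.0319), -4.81 for MSTRG.9850 in Camk1d (SE 1.44, limma adjusted p = 0.0350) and -4.18 for MSTRG.15000 in Cdk8, the kinase of the Mediator complex (SE 1.22, limma adjusted p = 0.0319). None of the 4 passed without chromatin 1, without chromatin 3, without nucleoplasm 1 or without nucleoplasm 3, with limma adjusted p from 0.0520 to 0.123 and log2 fold changes from -5.39 to -3.20. With ERCC scaling Cmss1 passed (limma adjusted p = 0.0388) and the other 3 did not (0.0501 to 0.0565). No label ties a replicate number to a culture. With that number as a block, Cmss1, Spata5 and Camk1d did not pass (limma adjusted p = 0.0533, 0.0710 and 0.0845). At MSTRG.11525 the counts were 337.5, 3572 and 259.1 in chromatin and 125421, 5329 and 16337 in nucleoplasm, at MSTRG.9850 they were 837.5, 12101 and 1714 against 433313, 19723 and 44857, and at MSTRG.15000 they were 26793, 90419 and 6401 against 1766470, 183817 and 286667. In all 4 loci chromatin 2 was the highest chromatin library and still below the lowest nucleoplasm library.

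The next fall at that mean, MSTRG.18511 (chr8:122589926-122590195, plus strand), had 106.7, 139.4 and 115.5 counts in chromatin and 651.8, 720.3 and 673.3 in nucleoplasm, a log2 fold change of -2.50 (SE 0.139, limma adjusted p = 4.80e-05). The nucleoplasm libraries lay close together and above all chromatin libraries. It belonged to the 10 falls outside the divergent group, of which 8 spanned less than 1000 bp. With ERCC scaling limma called 0 of these 10 lower, although 10 had an unadjusted p under 0.05. In 9 of them the log2 fold change shrank to between -1.77 and -1.28, with -1.77 for MSTRG.18511. edgeR and DESeq2 each called 9 of the 10. The largest of these 10 by fold change, MSTRG.17281 in Itgad, is named after its values were seen. Its counts were 0, 0 and 30.2 in chromatin and 98.0, 93.5 and 80.4 in nucleoplasm, and with 2 chromatin libraries at 0 the size of its fold change depends on the pseudocount. It did not pass with ERCC scaling (limma adjusted p = 0.0522), with edgeR (0.179), with DESeq2 (0.114), without chromatin 1 (0.102), without chromatin 2 (0.0930), or without nucleoplasm 1, 2 or 3 (0.0801, 0.0801 and 0.0705). Over all 47 members lower without the fold threshold, the median span was 371 bp.

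Members were compared with the rest of their host gene. A host value was the sum of the table entries assigned to the host other than members, and 730 members in 513 hosts had one. Over these hosts the median log2 fold change was 0.51 (quartiles -0.29 and 1.35). There were 67 hosts more than 4 fold higher in chromatin, 5 more than 4 fold lower, and 175 below 0. Over the 730 members the difference between the log2 fold change of the member and that of the host had a median of 2.59 (quartiles 1.39 and 3.63, range -6.69 to 7.98). The median difference was 2.67, 2.76 and 2.38 in library pairs 1 to 3. The member was above its host in 647 cases (88.6%) and more than 4 fold above it in 459 (62.9%), and it was more than 4 fold below it in 27. Of the 571 members called higher that had a host value, 154 lay in a host with a log2 fold change below 0.

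The fold change of the host ordered the members only weakly. Spearman's correlation between the 2 log2 fold changes was 0.19 (n = 730), over loci that share the same 6 libraries and in part the same hosts, and 0.11 for the 488 members above 2000 bp. Members in hosts below 0 had a median log2 fold change of 3.64 (n = 221), and members in hosts more than 4 fold higher in chromatin had a median of 4.04 (n = 119).

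The 5 hosts more than 4 fold lower in chromatin, named here after their values were seen, held 1 member each. Lars2, the mitochondrial leucyl-tRNA synthetase, had a log2 fold change of -4.24, while its member MSTRG.19698 had 526.5, 508.3 and 547.4 counts in chromatin and 48.5, 31.2 and 37.7 in nucleoplasm. That locus rose by 3.74 on the log2 scale (SE 0.197, limma adjusted p = 4.05e-05), and the difference from its host, 7.98, was the largest of all members. Members in Chmp4b, a subunit of the ESCRT-III complex, and in Atp6v1g1, a subunit of the vacuolar proton pump, rose by 3.56 and 2.75 in hosts with log2 fold changes of -2.02 and -2.18. The members in Kxd1 and Atp5o had log2 fold changes of 0.19 and 0.43 and did not pass the test.

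Larger hosts held members with larger differences. The median log2 fold change was 1.44 for 27 members in hosts of up to 20000 bp, 2.63 for 94 in hosts of up to 50000 bp, and 3.49 for 98 in hosts of up to 100000 bp. It was 3.72 for 155 members in hosts of up to 200000 bp, 3.93 for 221 in hosts of up to 500000 bp and 3.95 for 197 in larger ones. Spearman's correlation between host span and log2 fold change was 0.30 (n = 792), and 0.21 among 515 members above 2000 bp. The median span of the members rose along the same classes, from 345 bp to 9097 bp. The median host spanned 146320 bp, with a range of 4186 to 4434882 bp.

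The number of loci per host ran from 1 to 16. There were 432 hosts with 1 locus, and these loci had a median log2 fold change of 3.48. It was 3.90 for 148 loci in hosts with 2, 4.05 for 87 loci in hosts with 3 or 4, and 3.98 for 125 loci in hosts with 5 or more. Spearman's correlation between the number of loci per host and log2 fold change was 0.31. Fold changes varied less within hosts than between host means. Over 360 loci in the 118 hosts with more than 1, the SD of log2 fold change within hosts was 0.96, against an SD of 1.40 between the host means, and the median range within a host was 0.38. The SD over all 360 loci was 1.53. In 92 of the 118 hosts every locus was called higher. Called higher were 84.5% of the loci in hosts with 2, 86.2% in hosts with 3 or 4 and 85.6% in hosts with 5 or more. Ranges within hosts were not compared with those of loci from different hosts.

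Nkain2, which encodes a protein that binds the sodium pump, held the most loci, 16 over chr10:31689310-32890462 on the minus strand. All 16 were higher in chromatin, with log2 fold changes from 3.78 to 4.65, and they covered 24.1% of the host. The most abundant, MSTRG.1503, spanned 94845 bp and had 82305, 72023 and 96633 counts in chromatin and 5533, 3924 and 7084 in nucleoplasm. Its log2 fold change was 3.95 (SE 0.238, limma adjusted p = 6.03e-05). The other entries of Nkain2 had 1360, 1315 and 1837 counts in chromatin and 705.4, 705.9 and 694.3 in nucleoplasm, a log2 fold change of 1.08. The fractions did not overlap in either, and the gap between them was wider in the intronic locus.

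Gm20388 held 12 loci and was unlike the other hosts with many. It is a coding gene model of 4434882 bp at chr8:119910841-124345722, has no entry of its own in the table, and its loci covered 0.400% of it. Only 2 of the 12 were called higher and 1, MSTRG.18511, was called lower. The most abundant, MSTRG.18559, had 1294, 1258 and 1149 counts in chromatin and 566.9, 550.1 and 343.5 in nucleoplasm, a log2 fold change of 1.37 (SE 0.209, limma adjusted p = 0.00232), which was under the fold threshold in spite of fractions that did not overlap.

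Gab2, an adaptor of receptor tyrosine kinases, held 9 loci, all higher in chromatin by 3.67 to 4.13 on the log2 scale, whereas its own entries had a log2 fold change of 0.50. MSTRG.16918, its most abundant locus, had 2990, 2528 and 2417 counts in chromatin and 151.6, 145.0 and 172.5 in nucleoplasm (log2 fold change 4.07, SE 0.125, limma adjusted p = 2.28e-05). A further 5 hosts were tied at 7 loci. All 7 were called higher in Dlc1 (log2 fold changes 3.48 to 4.05), in Plcb1, a phospholipase C (3.49 to 4.01), and in Prkg1, the cGMP-dependent protein kinase (3.70 to 4.78). The host entries had log2 fold changes of 1.29, 0.97 and -0.02 in that order.

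The most abundant loci of these hosts were MSTRG.17741 in Dlc1, with 26977, 24302 and 19306 counts in chromatin and 1704, 1303 and 1762 in nucleoplasm, MSTRG.10872 in Plcb1, with 5942, 4953 and 10033 against 375.9, 290.0 and 637.8, and MSTRG.9511 in Prkg1, with 25406, 22468 and 37893 against 1542, 1118 and 2774. Library 3 was the highest of both fractions in Plcb1 and Prkg1, and in no locus did the fractions overlap. Ube2e2, a ubiquitin-conjugating enzyme, had 6 of 7 loci called higher, with log2 fold changes from 1.70 to 5.00 over all 7. Gphn, the gephyrin scaffold of inhibitory synapses, also had 6 of 7 called higher. The remaining locus in Gphn was MSTRG.4224, with 238.9, 6291 and 1212 counts in chromatin, 355026, 9344 and 22620 in nucleoplasm and a log2 fold change of -5.11 (SE 1.71, limma adjusted p = 0.0507).

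St6galnac3, a sialyltransferase gene singled out after its values were seen, held 2 loci. MSTRG.12431 (487 bp, containing the RefSeq pseudogene Gm5858) had 40.7, 44.0 and 29.1 counts in chromatin and 177.9, 175.0 and 151.5 in nucleoplasm, a log2 fold change of -2.14 (SE 0.227, limma adjusted p = 5.01e-04). It fell under the threshold of 4 fold with ERCC scaling (-1.41), with a pseudocount of 10 (-1.90) and without chromatin 3 (-1.96). MSTRG.12429 (8437 bp) had 2.03, 2.096 and 11.4 in chromatin and 0 in all 3 nucleoplasm libraries. It met the rule through chromatin alone, and its fold change depends on the pseudocount, so it is given by its counts only.

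Among 37 cardiac structure and excitation genes, 8 held members, 14 in all, of which 13 were called higher and 0 lower (median log2 fold change 4.10). The member left was MSTRG.1695 in Ctnna3, which lies inside MSTRG.1694. Over all members 76.3% were called higher and 1.77% lower, beside 15.7% and 4.90% of all entries. Cacna1c encodes the pore of the L-type calcium channel, and its locus MSTRG.15805 (chr6:118782450-118888808, minus strand) filled 64.1% of the intron around it. The counts were 90930, 86252 and 56286 in chromatin and 3745, 3174 and 3032 in nucleoplasm, a log2 fold change of 4.53 (SE 0.207, limma adjusted p = 3.08e-05) against 2.54 for the host. In Ctnna3, the alpha-T-catenin of intercalated discs, MSTRG.1694 had 50714, 40704 and 22604 counts in chromatin and 2355, 2254 and 1868 in nucleoplasm, a log2 fold change of 4.07 (SE 0.304, limma adjusted p = 1.26e-04). Here the host was close behind, at 3.66.

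A potassium channel gene and an ankyrin gene had further loci. In Kcnj3, a subunit of the acetylcholine-gated potassium channel of the atrium, MSTRG.10282 had 3782, 3469 and 1742 counts in chromatin and 383.0, 294.8 and 187.0 in nucleoplasm, a log2 fold change of 3.36 (SE 0.387, limma adjusted p = 7.02e-04). The fractions were separate, and the host entries had a log2 fold change of 0.09. In Ank3, which encodes ankyrin-G, MSTRG.1717 had 4492, 3971 and 3200 counts in chromatin and 253.6, 219.3 and 246.4 in nucleoplasm, a log2 fold change of 4.00 (SE 0.147, limma adjusted p = 2.31e-05). Library 3 was the lowest chromatin library in both loci, as it was for the cardiomyocyte markers.

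Rbm20, the splicing factor of titin, and Corin, the protease that activates atrial natriuretic peptide, also held loci. MSTRG.9731 in Rbm20 had 45414, 41017 and 49739 counts in chromatin and 2150, 1827 and 2539 in nucleoplasm, a log2 fold change of 4.39 (SE 0.146, limma adjusted p = 2.28e-05). MSTRG.14220 in Corin had 3219, 2819 and 1824 counts in chromatin and 179.9, 164.2 and 117.4 in nucleoplasm, a log2 fold change of 4.06 (SE 0.265, limma adjusted p = 7.79e-05). The fractions did not overlap in either locus. Hosts such as Ttn, Ryr2 and Actn2 held no member.

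Of 20 cardiac transcription factor genes, 3 held members, and 3 of these 4 loci were called higher, where 76.3% of all members were. In the homeobox gene Meis2, MSTRG.10645 filled 87.6% of its intron and had 24189, 21371 and 26077 counts in chromatin and 1567, 1221 and 1776 in nucleoplasm, a log2 fold change of 3.98 (SE 0.161, limma adjusted p = 2.56e-05). In the forkhead gene Foxp1, MSTRG.15671 had 1904, 1846 and 2139 counts in chromatin and 96.0, 71.9 and 118.1 in nucleoplasm, a log2 fold change of 4.37 (SE 0.196, limma adjusted p = 2.92e-05). Chromatin stood above nucleoplasm throughout both. In the nuclear receptor gene Esrrg, MSTRG.1248 had 0, 4.19 and 3.12 counts in chromatin and 0 in nucleoplasm. It is 1 of the loci that met the rule through chromatin alone and is given by its counts only.

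Position inside the host was examined over the gaps between merged exons. Of the members, 195 (24.6%) lay in the first gap of their host, where 17.8% of all intronic bases of the hosts lie. Members in the first gap had a median log2 fold change of 3.47 and the others a median of 3.81. Relative position along the host had a Spearman's correlation of -0.003 with log2 fold change, and of 0.11 among the 515 members above 2000 bp. The median distance was 11564 bp to the upstream exon, 14996 bp to the downstream exon and 6526 bp to the nearer of both. Members more than 10000 bp from any exon had a median log2 fold change of 4.00 (n = 320), and those between 100 and 1000 bp from an exon had a median of 2.81 (n = 126). The 21 members within 10 bp had a median of 3.39.

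The median member covered 10.98% of its gap, and 3 covered more than 90%. These 3, named after their values were seen, were MSTRG.19172 in Zfp609, MSTRG.14415 in Aff1 and MSTRG.15490 in Suclg1, which encodes a subunit of succinyl-CoA ligase. They covered 99.3%, 95.9% and 92.4% of the gap, and all 3 were called higher. An opposite-strand exon overlapped 47 members (5.93%, median log2 fold change 3.61), and an opposite-strand assembled locus overlapped 52 (6.57%, median 2.36).

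Long-read models from the 2 chromatin libraries were compared with the members by strand. A same-strand model of any kind overlapped 729 members (92.0%, 95% Wilson interval 89.95 to 93.7), and an opposite-strand model overlapped 377 (47.6%, interval 44.1 to 51.1). Models of the annotated host count among the former. Limited to assembled models, 428 members (54.0%) had one on the same strand, 353 (44.6%) on the opposite strand, 218 (27.5%) on both and 229 (28.9%) on neither. The long-read table was assembled without strand information, so the strand of a model is less certain than that of a short-read locus. A same-strand assembled model that itself touched no exon overlapped 336 members (42.4%, interval 39.0 to 45.9).

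The share with such an intronic model rose with the total count of the locus but not steadily with its count per kilobase. In 4 classes of 198 members by mean chromatin count it was 20.7%, 32.3%, 48.0% and 68.7%, and the share with an assembled model on the opposite strand rose alongside, from 18.7% to 71.7%. The median span of the members rose with it, from 374 bp to 21006 bp. In 4 classes by chromatin count per kilobase the share with an intronic model was 26.3%, 51.5%, 47.5% and 44.4%. Members with an intronic model had a median log2 fold change of 3.87 and 81.5% were called higher, and members without one had a median of 3.60 and 72.4% were called higher. Of the 604 members called higher, 274 (45.4%) had such a model, and of the 188 others 62 (33.0%) had one. An assembled model on the opposite strand overlapped 50.2% of the members called higher and 26.6% of the others.

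Of the 336 members with an intronic model, 177 had 1 model and the largest number was 18. The models covered a median of 55.6% of the member, and at least 50% in 190 members. The longest model per member had a median span of 3158 bp and reached 136241 bp. Summed TPM per member had a median of 8.13 in long-read library 1 and 8.36 in library 2. Across the 336 members, whose long reads come from the same 2 libraries, Spearman's correlation was 0.82 between the libraries and 0.38 between mean TPM and the short-read chromatin count. MSTRG.1503 in Nkain2 carried 8 intronic models with summed TPM of 65.5 and 52.7, and MSTRG.1694 in Ctnna3 carried 10 with 61.8 and 35.3. MSTRG.15805 in Cacna1c and MSTRG.10645 in Meis2, both higher in chromatin, carried none, and each had 7 assembled models on the opposite strand. On the same strand MSTRG.10645 had 5 assembled models, none of them intronic, and MSTRG.15805 had 0.

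Some members matched RefSeq genes in position, although GENCODE M21 holds no exon there on the strand of the member. A total of 64 had the same start and end as a RefSeq gene, of which 53 were long noncoding RNAs, 6 coding genes, 3 transcribed pseudogenes, 1 a pseudogene and 1, Gm19665 in Foxp1, an RNA of another class. Of the 64, 54 were called higher and 1 lower, with a median log2 fold change of 3.63, against 3.75 over the 728 members without such a match. They were less abundant, with a median chromatin count per kilobase of 76.3 against 250.1. RefSeq pseudogenes lay at least 50% inside 23 members. Of these 13 were called higher and 3 lower, and 7 of the 47 members lower without the fold threshold were among them. Of the 769 members without a pseudogene, 591 (76.9%) were called higher and 11 (1.43%) lower, beside 15.7% and 4.90% of all entries. At spans of up to 2000 bp, 3 of 11 members with a pseudogene were called higher and 2 lower. Of the 266 members without a pseudogene at those spans, 119 (44.7%) were called higher and 10 (3.76%) lower. The part of span in these calls was not tested. Strand was not examined for the matches of start and end or for the pseudogenes.

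The start of 40 members was the start of a RefSeq gene on the same strand. In these 33 were called higher and 1 lower, with a median log2 fold change of 3.63. The RefSeq window from 250 bases before to 50 bases after the start was read for each, and was searched on both strands for TATAAA, for CCAAT and for GGGCGG, none of which contains another. TATAAA was in 11 of the 40 windows (27.5%) against 13.6% of all 32851 RefSeq windows of that length. CCAAT was in 10 (25%) against 37.4%, and GGGCGG in 4 (10%) against 35.7%. The median GC content was 48.3% against 52.7%, and the median number of CG dinucleotides was 4 against 7. A match is a description of the letters and marks no site.

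The paper's assembly was guided by a reference annotation, so a start shared with RefSeq may be that of the annotation. Where transcription begins was not tested. Shown are the windows of the 4 most abundant of these members and of the only one called lower. They are given 5′ to 3′ on the strand of the locus (RefSeq, build GRCm38.p6), and capitals mark the 50 bases inside the member. Gm41607 is MSTRG.8316 in Fbxl17 (window chr17:63297748-63298047, minus strand), with 6221, 5782 and 6281 counts in chromatin and 385.0, 238.5 and 458.0 in nucleoplasm. Tbrg3 is MSTRG.6645 in Tcf20 (chr15:82898412-82898711, minus strand), with 5374, 4833 and 4934 against 447.7, 391.9 and 545.7. The fractions were far apart in both, with log2 fold changes of 4.13 and 3.46. Gm33047 is MSTRG.15382 in Hibadh (chr6:52579764-52580063, minus strand), with 2355, 2024 and 2489 against 161.7, 130.6 and 195.7. Gm40912 is MSTRG.4844 in Fars2, the mitochondrial phenylalanyl-tRNA synthetase (chr13:36207503-36207802, plus strand), with 2181, 1886 and 1894 against 186.9, 139.0 and 163.8. These had log2 fold changes of 3.82 and 3.60. Ndufb4b, named after its values were seen, is a RefSeq coding gene of the complex I subunit family and is MSTRG.9452 in Dock8 (chr19:25032858-25033157, plus strand). It had 74.2, 78.6 and 76.0 counts in chromatin and 483.0, 408.7 and 382.7 in nucleoplasm, a log2 fold change of -2.46 (SE 0.144, limma adjusted p = 5.53e-05), and with ERCC scaling it fell under the threshold of 4 fold (-1.73).
Gm41607: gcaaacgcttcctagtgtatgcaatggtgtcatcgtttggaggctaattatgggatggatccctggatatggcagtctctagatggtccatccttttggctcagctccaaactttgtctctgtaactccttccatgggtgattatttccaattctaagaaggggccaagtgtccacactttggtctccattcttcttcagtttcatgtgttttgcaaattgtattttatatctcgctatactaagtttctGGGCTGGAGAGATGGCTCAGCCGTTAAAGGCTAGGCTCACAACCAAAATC
Tbrg3: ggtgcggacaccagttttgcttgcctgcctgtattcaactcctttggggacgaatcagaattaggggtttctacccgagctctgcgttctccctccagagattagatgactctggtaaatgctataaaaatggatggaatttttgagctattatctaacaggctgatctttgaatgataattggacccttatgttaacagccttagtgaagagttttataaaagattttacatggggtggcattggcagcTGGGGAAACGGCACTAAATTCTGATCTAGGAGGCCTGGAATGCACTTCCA
Gm33047: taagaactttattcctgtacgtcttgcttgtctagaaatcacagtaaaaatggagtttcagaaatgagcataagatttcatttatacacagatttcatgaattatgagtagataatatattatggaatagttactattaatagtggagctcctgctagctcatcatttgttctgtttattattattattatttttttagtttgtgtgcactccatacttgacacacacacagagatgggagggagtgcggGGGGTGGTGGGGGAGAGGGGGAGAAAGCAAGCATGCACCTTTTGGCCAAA
Gm40912: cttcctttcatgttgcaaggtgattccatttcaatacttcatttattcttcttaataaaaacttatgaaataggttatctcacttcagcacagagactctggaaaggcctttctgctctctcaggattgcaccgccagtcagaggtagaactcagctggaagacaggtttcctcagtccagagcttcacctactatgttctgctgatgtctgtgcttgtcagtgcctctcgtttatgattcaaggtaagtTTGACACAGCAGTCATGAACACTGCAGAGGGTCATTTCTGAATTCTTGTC
Ndufb4b: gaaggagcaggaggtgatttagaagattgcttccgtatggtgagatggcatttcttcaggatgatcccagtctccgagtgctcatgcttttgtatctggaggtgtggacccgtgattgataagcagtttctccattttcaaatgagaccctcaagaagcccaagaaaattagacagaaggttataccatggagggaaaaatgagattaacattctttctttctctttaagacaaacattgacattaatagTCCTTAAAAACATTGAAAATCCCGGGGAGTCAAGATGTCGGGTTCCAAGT

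Counted from the start of the member as base 1, with the base before it as -1, the leftmost printed base of a TATAAA match on either strand was at -26 in Gm41607, at -128, -36 and -34 in Tbrg3 and at -170 in Gm33047. For CCAAT on either strand it was at -103 in Gm41607 and at -71 and -9 in Tbrg3. GGGCGG was in none of these 5 windows, and the windows of Gm40912 and Ndufb4b held none of the searched letters.

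Genes that act on intron RNA were measured in the same libraries. Of 23 gene symbols listed for lariat debranching and nuclear decay, 19 had an entry, all above 0. Among those without one, Skiv2l2 and Ars2 are older symbols of Mtrex and Srrt, which had entries. The median log2 fold change was -0.31. Without the fold threshold, 3 of the 19 were higher in chromatin and 10 were lower, beside 26.9% and 20.9% of all entries. Zfc3h1, which links polyadenylated nuclear RNA to the exosome, was the only one more than 4 fold higher. It had 13168, 11716 and 12651 counts in chromatin and 2046, 2156 and 2279 in nucleoplasm, a log2 fold change of 2.53 (SE 0.0846, limma adjusted p = 2.28e-05). Dbr1, the debranching enzyme, had 717.6, 694.8 and 902.3 counts in chromatin and 1430, 1429 and 2031 in nucleoplasm. It was lower in chromatin, with a log2 fold change of -1.07 (SE 0.183, limma adjusted p = 0.00377).

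All 17 genes for U1 and 3′ end factors had an entry, with a median log2 fold change of -0.15. Without the fold threshold, 7 were higher and 5 lower in chromatin, beside 26.9% and 20.9% of all entries. Snrpc, a protein of the U1 particle, was the only one more than 4 fold lower, with 466.5, 561.7 and 412.1 counts in chromatin and 2286, 2383 and 2605 in nucleoplasm (log2 fold change -2.34, SE 0.135, limma adjusted p = 5.32e-05). Wdr33, a subunit of the cleavage and polyadenylation factor, had 21459, 19561 and 20376 counts in chromatin and 5599, 5258 and 6020 in nucleoplasm, a log2 fold change of 1.86 (SE 0.0882, limma adjusted p = 3.26e-05). Both medians lay below the median over all entries, which was 0.38, and 0.05 over entries with a mean of at least 10. They lay above the median of -0.62 over assembled loci that touched an exon inside a same-strand coding gene (n = 4279). Of those loci, 20.5% were higher and 52.0% lower without the fold threshold.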

How the data were processed

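Short reads covered RNA of both fractions (3 libraries each) and long reads that of chromatin (2 libraries). Groups follow the sample titles, since the fraction field of the labels reads chromatin in the nucleoplasm samples too. The authors aligned short reads with HISAT2 2.1.0, assembled them with StringTie and deposited gene counts derived from coverage after division by DESeq2 size factors. The long-read table as deposited holds TPM of StringTie models. Dividing each library by its smallest step gave whole reads, within 0.001, for 100% of values, with 91657034 to 121773350 reads per library. Within fractions, libraries differed beyond counting error (chi-square per gene 42.4 to 2041), and intervals of shares cover counting error only.

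limma 3.58.1 in R 4.3.3 was run with a variance trend on log2(normalized count + 1) over entries above 0 in at least 1 of 6 libraries, two-sided, with Benjamini-Hochberg adjustment. A call needed an adjusted p under 0.05 and a change of more than 4 fold. Functions were tested on simulated data. edgeR 4.0.16 and DESeq2 1.42.0 on recovered reads, other pseudocounts (0.1 and 10), a mean of at least 10, no trend, ERCC scaling, quantile normalization, a replicate block, each library left out and narrower member rules were alternatives. Overlaps of at least 1 bp and summaries used Python 3.11.15, pandas 2.3.3, numpy 2.4.6 and scipy 1.17.1. The host was the smallest same-strand coding gene around a locus (769 members lay in exactly 1), and 62 members had no host value.

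Named members were the 10 with the highest mean, the 5 largest rises and 5 largest falls among called members with a mean of at least 100 and 1 direction in all 3 same-numbered pairs, the most abundant member of the 5 hosts with most members (with ties, 8 hosts), and the most abundant member of hosts in 2 cardiac lists. Members and lists were chosen with earlier results of these data known. GC content and polyadenylation hexamers of the members were not analysed, because no genome sequence was at hand.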

Additional observations from a re-analysis of the deposited data

How the results depend on the processing

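The number of members called higher was 645 with no fold threshold, 506 of the 632 members at least 1000 bp from an exon, and 578 to 631 under the other alternatives. The number called lower was 1 with ERCC scaling, 22 with quantile normalization, 47 with no fold threshold, and 8 to 17 when each library was left out in turn. The median log2 fold change of members was 3.43 with a pseudocount of 10 and 4.44 with ERCC scaling, which moved the median of all entries to 0.83 as well, and it was 3.64 to 3.81 with a library left out. The median difference from the host was 1.71 with accession entries of the host only, which left 13 members. The share with same-strand long-read overlap was 87.8% at a mean TPM of at least 1, 87.4% for models above 0 in both libraries and 42.4% for intronic models only. Without the 13 loci with divergent nucleoplasm libraries, an alternative added after the data were seen, the median difference from the host was 2.61. With the replicate number as a block 607 members were higher and 11 lower. Of the named loci, MSTRG.7371 in Cmss1, MSTRG.11525 in Spata5 and MSTRG.9850 in Camk1d did not pass with the block (limma adjusted p = 0.0533, 0.0710 and 0.0845). Per the labels both fractions came from 3 independent cultures, but no label says that a replicate number marks a culture. After removal of fraction means, same-numbered libraries correlated at 0.0975, 0.0883 and 0.222 over all entries, where each library correlated best with its own number in the other fraction, and at 0.00588, -0.148 and 0.689 over members, where that did not hold.

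Of the loci named by the rule, 5 with nucleoplasm 2 highest changed sign. With edgeR and DESeq2 the log2 fold change was -0.76 and -0.69 for Filip1l MSTRG.7372, -0.66 and -0.59 for Jarid2 MSTRG.4887, -0.89 and -0.81 for Rsph3b MSTRG.7593, -0.92 and -0.84 for Dnah7b MSTRG.238, and -0.86 and -0.79 for Tmtc2 MSTRG.2109. With a library left out they ranged from -0.92 to 2.27, -0.71 to 3.65, -1.13 to 3.51, -1.16 to 3.48 and -0.93 to 3.51 in the same order, lowest without nucleoplasm 1. The cause was not tested. None of these 5 passed the test in the fit of all libraries. Camk1d MSTRG.9850 and Spata5 MSTRG.11525 also lost their calls with edgeR (adjusted p = 0.0520 and 0.0525) and without the variance trend (0.0543 and 0.0502). Gphn MSTRG.4224, not called in the fit of all entries, passed at a mean of at least 10 (0.0378), with quantile normalization (0.0418), without chromatin 2 (0.0429), without nucleoplasm 2 (0.0445) and with DESeq2 (0.00142). Il31ra MSTRG.5348, also not called, passed in 5 alternatives. Of the loci named by the rule outside the divergent group, 1 lost its call (MSTRG.18511 with ERCC scaling) and 2 gained one. The 10 members called lower outside that group all lost their calls with ERCC scaling, with Ndufb4b MSTRG.9452 at -1.73, St6galnac3 MSTRG.12431 at -1.41 and Itgad MSTRG.17281 at an adjusted p of 0.0522. With a pseudocount of 10, 7 of the 10 were called, with quantile normalization 8, and with a library left out 7 to 9. MSTRG.12429 lost its call with a pseudocount of 10, quantile normalization, edgeR and DESeq2, without chromatin 3 and without any 1 nucleoplasm library. Hacd1 MSTRG.9900, not called, was at -0.47 with edgeR and -0.40 with DESeq2, and from -0.56 to 2.83 with a library left out. Ctnna3 MSTRG.1695, not called, ranged from -3.13 to 4.08 with a library left out. With 3 libraries per fraction, differences at loci under a mean of 10 were measured with little precision.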
